A study of Mus musculus with 18 samples.

Results

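High grade dysplasia taken 6 weeks after azoxymethane was compared with low grade dysplasia taken 4 weeks after it. The comparison used 6 of the 18 arrays of a mouse colitis-associated cancer series, chosen by title, 3 in each group. Male ICR mice, an outbred stock, were 6 weeks old at the start and were injected on day 1 with 10 mg/kg of azoxymethane (AOM), which forms DNA adducts in the colon. They then drank, in cycles, dextran sulphate sodium (DSS), a polymer that damages the crypts and brings on colitis. Low grade dysplasia (LGD) was collected at day 28, after 1 DSS cycle (2%, days 8 to 14). High grade dysplasia (HGD) was collected at day 42, after that cycle and a further one at 1.5% on days 29 to 33. LGD tissue was therefore taken 14 days after the last DSS and HGD tissue 9 days after it, and mice with HGD were 14 days older. Grade, age and the number of DSS cycles cannot be told apart in this design, and no group with AOM alone or DSS alone was analysed here. Normal mucosa from controls that had saline in place of AOM and plain water (3 arrays, day 14) serves as the background level below. RNA was extracted from whole lesions of the colorectum. The labels call the 3 arrays of a group biological replicates and do not say whether each came from a different animal, so the tests measure the spread between these samples.

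Dysplasia is epithelium with disordered crypts and nuclei that has not invaded, and its grade is read from how far that order is lost. It grows within a lamina propria of fibroblasts, vessels, smooth muscle and immune cells. Fibroblasts there lay down collagens, proteoglycans and the glycoproteins that hold fibres together, and injury to the mucosa is followed by matrix synthesis and remodelling. Mucosal mast cells lie within and beneath the epithelium, take up IgE through a high affinity receptor, and store granules of serine proteases (chymases and tryptases) and a carboxypeptidase. Mcpt1 and Mcpt2 are the chymases typical of mucosal mast cells of the mouse, while Mcpt4, Cma1 and the tryptases are better known from connective tissue mast cells.

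Values are given as log2(signal + 16), so a step of 1 is a 2-fold change, shrunken for dim genes. Differences are HGD minus LGD, with the standard error (SE) or 95% confidence interval of a limma model fitted to all 18 arrays, and adjusted p-values follow Benjamini and Hochberg over 12877 genes. Because tissue was measured whole, fewer cells of a type and less RNA per cell cannot be told apart.

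The arrays of the HGD group resembled each other more than those of the LGD group. Across all genes, pairs of HGD arrays correlated at 0.978 to 0.985 and pairs of LGD arrays at 0.915 to 0.955, and the median SD of a gene over 3 arrays was 0.13 in HGD and 0.19 in LGD. LGD replicate 3 stood apart. It lay at least 2-fold from the mean of normal mucosa in 226 genes, against 1409 and 790 genes for LGD replicates 1 and 2 and 366 to 745 genes for the HGD arrays. Its mean over 27 Wnt target and crypt stem genes was 0.20 above that of normal mucosa, where LGD replicates 1 and 2 were 2.06 and 1.57 above it and the HGD arrays 1.51 to 1.91. LGD replicate 2 differed in another respect, with a 3 prime over 5 prime log2 ratio of the Gapdh control probe sets of 1.63, against -0.08 to 0.16 on the other 17 arrays. HGD replicate 2 had little smooth muscle signal, as described with those genes. The part of these features in the differences below was not tested beyond leaving each array out in turn. Epithelium was present on all 6 arrays: Epcam, an adhesion protein of epithelial cells, read 13.05 to 13.35, and the mean of 19 general epithelial genes 10.86 to 11.57.

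No gene passed an adjusted p of 0.05 (0% of 12877 genes), and the lowest adjusted p, shared by 9 genes, was 0.35. All 9 were lower in HGD, and 5 of them belong to the stromal lists described below. At an unadjusted p under 0.05 there were 900 genes (6.99%), 374 higher and 526 lower in HGD. All 3 HGD arrays lay above all 3 LGD arrays in 736 genes (5.72%) and below them in 853 (6.62%). Of these, 69 genes (0.536%) were also at least 2-fold higher and 42 (0.326%) at least 2-fold lower. With 3 arrays against 3, an exact permutation test of a single gene cannot go below 0.1. The median SE of a difference was 0.157, and the median half-width of its 95% interval 0.336. By that interval alone, a typical gene could differ by that much in either direction without being told from 0. The interval is not adjusted for the number of genes, so the adjusted test can miss larger differences than that. The median difference over all genes was 0.01.

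**Figure D1:**
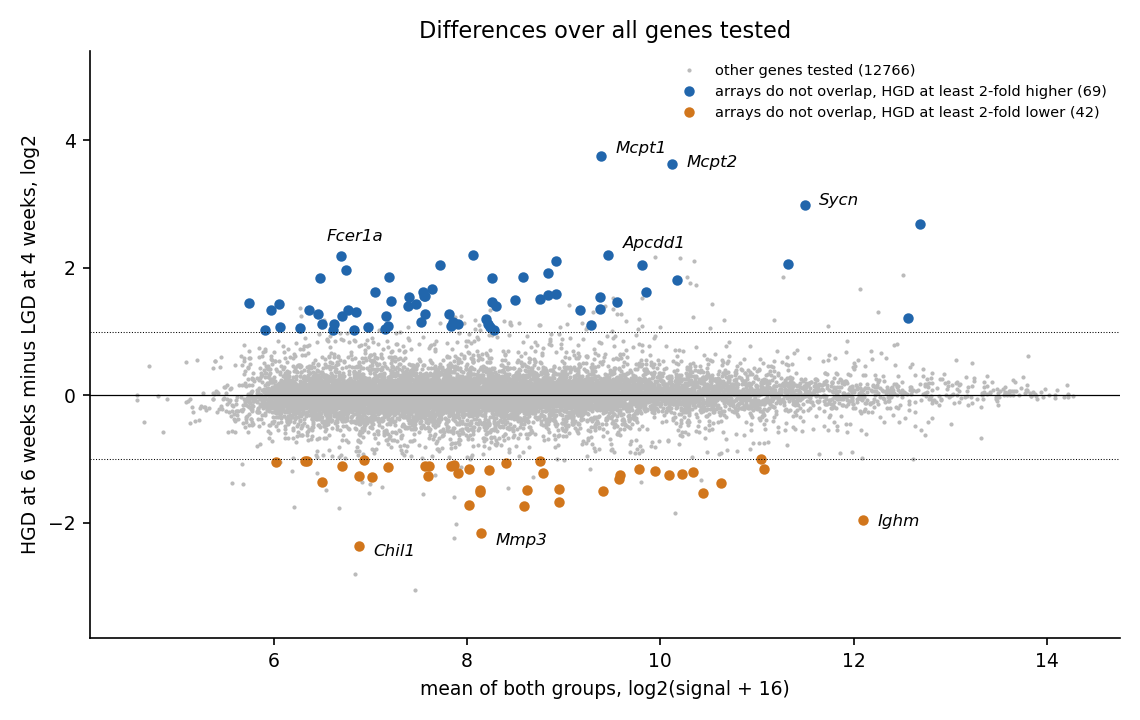
Difference between HGD at 6 weeks and LGD at 4 weeks (log2, vertical axis) against the mean of both groups (log2(signal + 16), horizontal axis) for each of 12877 genes. Coloured points are the 69 and 42 genes that differed at least 2-fold with arrays that do not overlap, dotted lines mark 2-fold, and the mast cell chymases Mcpt1 and Mcpt2 sit highest.

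The mast cell chymases Mcpt1 and Mcpt2 held the largest differences of the whole comparison. The proteases Mcpt1, Mcpt2, Cpa3, Cma1, Mcpt4 and Tpsab1 and the IgE receptor subunits Fcer1a and Ms4a2 were higher on every HGD array than on any LGD array, by 1.25 to 3.75 on the log2 scale, although none passed the adjusted test. Over the 15 measured receptor, granule and lineage genes, 8 were higher in mean and 7 lower, with a median difference of 0.02. Among mast cell genes, Kit, Gata2 and Hdc, which other cells also use, overlapped between the groups, as did the tryptases Tpsb2 and Tpsg1. For members of this set that have a RefSeq promoter entry (26 of the 31 protease, receptor and granule genes listed), the 150 bases before the start of transcription are shown for 5 of the separated ones, because genes of mast cell granules and receptors are known to include targets of GATA factors. They are printed 5 prime to 3 prime on the strand of the gene, with capitals marking each GATAA (on either strand, so TTATC where it lies on the other) and each TATAAA on the printed strand.
Mcpt1: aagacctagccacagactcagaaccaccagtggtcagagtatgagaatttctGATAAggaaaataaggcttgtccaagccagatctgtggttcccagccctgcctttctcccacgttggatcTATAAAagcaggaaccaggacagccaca
Mcpt4: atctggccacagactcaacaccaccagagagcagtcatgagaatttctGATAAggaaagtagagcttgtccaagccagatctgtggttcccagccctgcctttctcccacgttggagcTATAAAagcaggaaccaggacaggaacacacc
Cpa3: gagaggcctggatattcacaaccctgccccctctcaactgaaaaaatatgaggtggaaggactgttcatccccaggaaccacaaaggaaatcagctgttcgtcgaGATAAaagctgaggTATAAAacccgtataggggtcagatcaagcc
Fcer1a: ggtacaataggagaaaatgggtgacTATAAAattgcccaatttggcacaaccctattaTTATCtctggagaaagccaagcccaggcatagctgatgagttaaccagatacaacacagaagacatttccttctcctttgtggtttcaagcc
Ms4a2: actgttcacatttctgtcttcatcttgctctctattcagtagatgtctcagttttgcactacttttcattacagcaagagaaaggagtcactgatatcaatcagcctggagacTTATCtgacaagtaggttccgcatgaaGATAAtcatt
The windows lie, on GRCm38.p6, at chr14:56017814-56017963 (plus strand) for Mcpt1, chr14:56062311-56062460 (minus) for Mcpt4, chr3:20242182-20242331 (minus) for Cpa3, chr1:173227230-173227379 (minus) for Fcer1a and chr19:11623720-11623869 (minus) for Ms4a2. These 5 were picked for their matches among the 7 separated genes with an entry; the windows of the other 2, Cma1 and Hpgds, hold neither motif. GATAA was thus in 5 of the 7 and TATAAA in 4, with no overlap between the printed matches. Counted from the start of transcription, TATAAA began at -28 in Mcpt1, -32 in Mcpt4 and -31 in Cpa3, but at -125 in Fcer1a. Among the 19 other listed mast cell genes with an entry, 5 held GATAA and 1 TATAAA in any of their windows. Of 32851 windows of this length over all genes, 13.3% held GATAA and 4.84% TATAAA. The windows of Mcpt1 and Mcpt4 were identical at 85.9% of 156 aligned columns, while each of the other pairs among these 5 stood at 44.4% to 51.4%. A match describes letters only, and binding of a factor was not measured.

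Mcpt1 read 5.65, 8.38 and 8.53 on LGD replicates 1 to 3 and 11.50, 11.37 and 10.93 on the HGD arrays. The HGD arrays lay close together and well above the LGD arrays, of which replicate 1 was just under the range of normal mucosa (5.69 to 7.32) and the other 2 above it. The difference was 3.75 ± 1.15 (SE, n = 3 per group), or 13.5-fold, with a 95% interval of 1.29 to 6.21 and an adjusted p of 0.504. Mcpt2, the neighbouring chymase in function, read 6.38, 9.11 and 9.44 in LGD and 12.38, 11.82 and 11.59 in HGD. The same LGD array was the low one, and the groups did not overlap. Its difference was 3.62 ± 1.08 (SE), with an adjusted p of 0.47. Mcpt1 and Mcpt2 are related in sequence, and how far their probe sets read each other's RNA is not given in the sources used here.

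Cpa3, the carboxypeptidase of mast cell granules, read 6.23, 6.70 and 7.18 in LGD and 9.01, 8.63 and 8.57 in HGD. LGD stayed within the range of normal mucosa (5.57 to 7.47) and each HGD array exceeded it. The difference was 2.04 ± 0.50 (SE; adjusted p 0.408). Fcer1a, the IgE-binding alpha chain of the receptor, read 5.32, 5.84 and 5.66 in LGD and 8.20, 7.62 and 7.57 in HGD. The lowest HGD array exceeded the highest LGD array by 1.73, the LGD arrays were again within the normal range (4.75 to 6.12), and the difference was 2.19 ± 0.56 (SE; adjusted p 0.408). Ms4a2, the beta chain of the same receptor, read 5.27, 5.42 and 5.22 in LGD and 6.52, 6.78 and 6.64 in HGD. The groups were apart by 1.10, and the difference was 1.34 ± 0.64 (SE). That SE was widened by other stages, where Ms4a2 ran from 5.13 to 8.92 in HGD at 8 weeks. For Fcer1a and Ms4a2 each LGD array lay under the signal cut-off of the filter (56.6) and each HGD array above it. Since 3 arrays above the cut-off suffice, the HGD arrays alone could bring these genes into the test. Under the cut-off the constant added before taking logs shrinks spread, so the closeness of the LGD arrays carries little weight.

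Proteases of connective tissue mast cells were also higher, by less. Cma1 read 6.03, 6.90 and 6.98 in LGD and 7.91, 8.19 and 8.42 in HGD, a difference of 1.54 ± 0.44 (SE). Mcpt4 read 6.14, 6.52 and 6.95 in LGD and 8.09, 7.70 and 7.57 in HGD, a difference of 1.25 ± 0.33 (SE). Tpsab1, a tryptase, read 5.36, 5.61 and 6.12 in LGD and 6.44, 7.13 and 7.53 in HGD, a difference of 1.34 ± 0.43 (SE). None of these 3 genes overlapped between groups, and adjusted p-values were 0.416 to 0.529. For Tpsab1, as for Fcer1a and Ms4a2, each LGD array lay under the filter cut-off and each HGD array above it. Tpsb2, another tryptase, read 6.39, 5.83 and 6.56 in LGD and 6.89, 6.53 and 6.52 in HGD, and Tpsg1, a membrane-anchored one, differed by 0.46; both overlapped. In all, 8 of 11 listed proteases were measured, all 8 were higher in mean, and their median difference was 1.44 against 0.01 over all genes. Of the 8, 6 were separated, where 5.72% of all genes were separated higher. The 6 include Tpsab1, which the HGD arrays alone could bring into the test.

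Among the 15 measured receptor, granule and lineage genes the median difference was 0.02. Of them 3 were separated higher and 0 lower, where 5.72% and 6.62% of all genes were. The third, besides Fcer1a and Ms4a2, was Hpgds, the prostaglandin D synthase of mast cells, which tuft cells also carry. It read 5.95, 5.63 and 6.31 in LGD and 6.47, 6.44 and 6.37 in HGD, apart by only 0.06, with a difference of 0.46 ± 0.14 (SE). Kit, the stem cell factor receptor of mast cells and of interstitial cells of Cajal, read 7.27, 6.85 and 7.42 in LGD and 7.51, 7.25 and 7.61 in HGD. The groups overlapped, the interval of the difference ran from -0.17 to 0.73, and all 6 arrays lay under the normal range (7.96 to 8.11). Hdc, which makes histamine, read 9.30, 7.24 and 5.71 in LGD and 8.47, 6.64 and 7.19 in HGD, with LGD replicate 1 the highest and LGD replicate 3 the lowest. Gata2, a transcription factor of mast cells and other lineages, differed by 0.02 ± 0.27 (SE) and Mitf by -0.32 ± 0.20 (SE), both with overlap. The 95% interval for Gata2 ran from -0.56 to 0.60.

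Of 12 listed factors that act on mast cell growth, 6 were measured and the median difference was -0.21, or -0.10 without LGD replicate 1. Kitl, the ligand of Kit, read 10.28, 10.49 and 9.95 in LGD and 10.75, 10.59 and 10.88 in HGD, separated by 0.09, with a difference of 0.49 ± 0.28 (SE). Il33, an alarmin, read 9.78, 9.04 and 7.57 in LGD and 8.23, 8.25 and 7.97 in HGD, and overlapped. Tgfb1 was slightly lower (-0.25 ± 0.19, SE), with arrays that did not overlap. Basophils carry the same IgE receptor. Of 11 listed basophil and eosinophil genes 2 were measured, 1 higher and 1 lower in mean. Ccl24, an eosinophil attractant, was separated higher by 0.59 ± 0.28 (SE), while the other differed by -0.39 and was not separated.

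**Figure D2:**
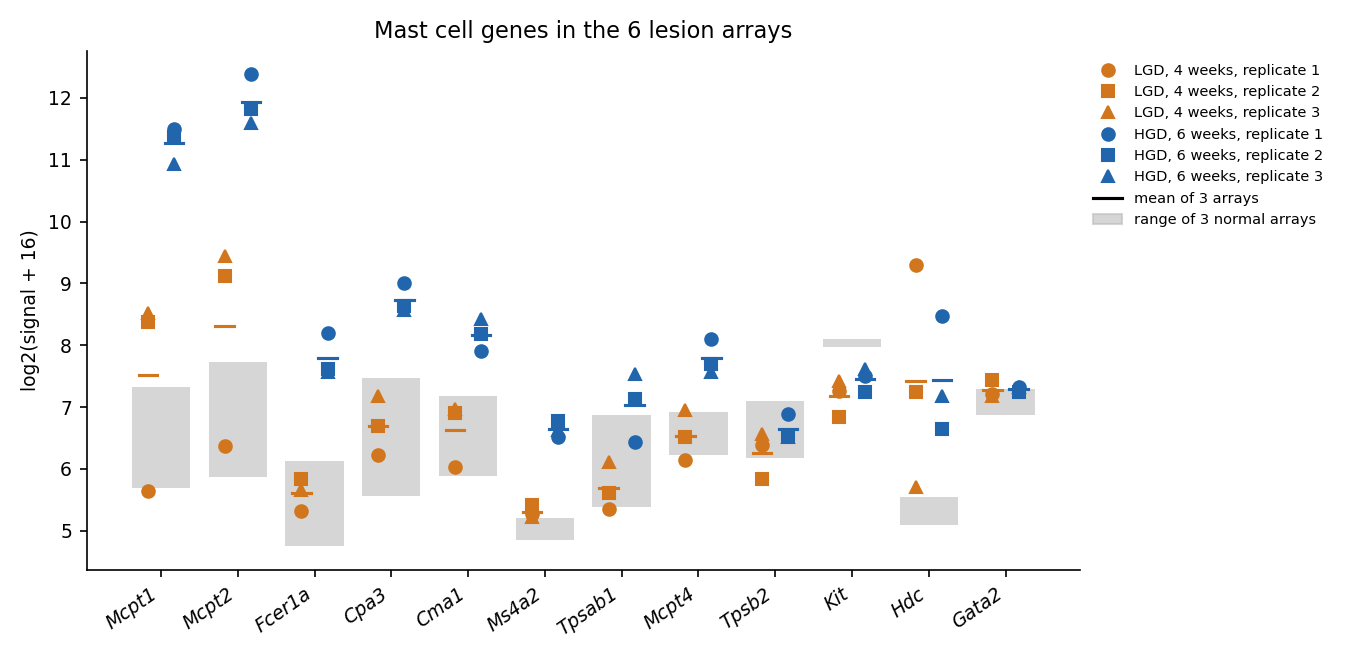
Level of 12 mast cell genes, as log2(signal + 16), on the 3 LGD and 3 HGD arrays, with bars for group means and grey bands for the range of 3 normal arrays. HGD arrays of Mcpt1 lie between 10.93 and 11.50, above the highest LGD array at 8.53, while Kit, Hdc and Gata2 overlap.

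Across the other stages the mast cell proteases varied within groups. The mean over the 8 proteases was 6.07, 6.93 and 7.46 in LGD and 8.72, 8.62 and 8.52 in HGD at 6 weeks. It was 6.13 to 6.99 in normal mucosa, 6.31 to 6.88 in inflamed mucosa at day 14, 7.10, 7.45 and 8.84 in HGD at 8 weeks, and 7.14, 8.03 and 8.54 in carcinoma. Mcpt1 itself read 7.70, 6.80 and 11.43 in HGD at 8 weeks and 6.93, 10.65 and 10.82 in carcinoma. On the scale of Mcpt1, 1 array of HGD at 8 weeks lay within the range of HGD at 6 weeks, and each carcinoma array lay below it. These wide groups enter the SE of the comparison.

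Stromal genes lay lower in HGD, most of all the matrix made by fibroblasts. The 7 lists for collagens, basement membrane, matrix glycoproteins and proteoglycans, fibroblasts, matrix proteases, pericytes and endothelium held 134 measured genes (1.04% of those tested). Of these, 61 had all HGD arrays below all LGD arrays, where 6.62% of all genes did, and 1 (Sox17) had them above. The median difference over the 134 genes was -0.63, and 20 of the 42 genes separated by at least 2-fold downwards were among them. Smooth muscle genes are given apart, since 1 HGD array decides them.

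All 15 measured interstitial and fibrillar collagen genes were lower in mean in HGD, with a median of -0.99, and 11 were separated. Col1a2, a chain of type I collagen, read 13.59, 13.35 and 12.39 in LGD and 12.31, 11.72 and 12.33 in HGD. LGD replicates 1 and 2 were high, while replicate 3 exceeded the highest HGD array by 0.06 and matched the top of the normal range (12.16 to 12.39). The difference was -0.99 ± 0.26 (SE; adjusted p 0.408). Col1a1, the other chain, read 11.95, 11.86 and 9.45 in LGD and 10.04, 9.62 and 9.59 in HGD, so that LGD replicate 3 lay below each HGD array and the groups overlapped. Its difference was -1.33 ± 0.54 (SE) over all arrays and -2.15 without LGD replicate 3, where the adjusted p was 0.0341.

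Type V collagen, which sets the width of type I fibrils, showed the same order. Col5a1 read 10.74, 10.54 and 9.33 in LGD and 9.20, 8.57 and 9.10 in HGD, a difference of -1.25 ± 0.35 (SE). Col5a2 read 12.12, 11.77 and 10.75 in LGD and 10.72, 10.35 and 10.55 in HGD, a difference of -1.01 ± 0.27 (SE). Both were separated only narrowly, by 0.13 and 0.03, with LGD replicate 3 the lowest of its group. Col6a3, of the microfibrils around cells, read 10.81, 11.37 and 10.33 in LGD and 9.73, 9.18 and 9.92 in HGD, a clearer separation, with a difference of -1.23 ± 0.40 (SE). Col3a1, the fibrillar collagen of soft tissue, was smaller in change (-0.67 ± 0.19, SE) and separated by 0.05.

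In the basement membrane, the sheet under epithelium and around vessels, 3 of 16 measured genes were separated and the median was -0.53. The collagen IV chains were the clearest. Col4a1 read 12.03, 11.90 and 11.05 in LGD and 10.78, 10.20 and 10.51 in HGD, a difference of -1.16 ± 0.24 (SE) and among the lowest unadjusted p-values of the comparison (2.19e-04; adjusted 0.35). Every LGD array lay above the normal range (10.47 to 10.87) and 1 HGD array lay below it. Col4a2 read 11.03, 11.18 and 9.95 in LGD and 9.67, 9.05 and 9.66 in HGD, a difference of -1.25 ± 0.28 (SE). Lama2, a laminin of muscle and vessel, was separated at -0.62 ± 0.17 (SE), and 15 of the 16 were lower in mean.

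Of 29 measured matrix glycoproteins and proteoglycans, 28 were lower in mean, 18 were separated and the median was -0.80, or -0.53 without LGD replicate 1. Loxl1, an enzyme that crosslinks elastin, read 9.03, 9.05 and 8.35 in LGD and 7.74, 7.49 and 7.70 in HGD. The lowest LGD array exceeded the highest HGD array by 0.61, and the difference was -1.17 ± 0.23 (SE; unadjusted p 1.87e-04, adjusted 0.35). Mfap4, a microfibril protein, read 9.93, 8.81 and 7.90 in LGD and 7.02, 6.87 and 7.61 in HGD, with LGD replicate 3 inside the normal range (7.57 to 8.17) and a difference of -1.72 ± 0.45 (SE). Tnc, the injury-associated glycoprotein tenascin C, read 10.40, 9.87 and 9.09 in LGD and 8.73, 7.54 and 8.08 in HGD. The difference was -1.67 ± 0.45 (SE) by this probe set and -0.41 by a second one. Vcan, the proteoglycan versican, read 10.30, 9.18 and 8.61 in LGD and 8.45, 7.51 and 7.68 in HGD, a difference of -1.48 ± 0.39 (SE). Eln, elastin itself, differed by -1.22 ± 0.32 (SE) and Lum, the proteoglycan lumican, by -0.96 ± 0.35 (SE), both separated. The exception in direction was Mgp, an inhibitor of calcification, at 0.30 ± 0.30 (SE) with overlap.

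Of 29 measured fibroblast genes 9 were separated lower and the median was -0.42, or -0.74 without LGD replicate 3. Grem1, a BMP antagonist of the cells around the crypt base, read 11.99, 11.32 and 10.30 in LGD and 10.20, 9.06 and 9.78 in HGD, a difference of -1.53 ± 0.42 (SE) with a gap of only 0.09 between groups. Pdgfrb, a growth factor receptor of fibroblasts and pericytes, read 10.54, 10.54 and 9.99 in LGD and 9.22, 8.86 and 9.54 in HGD, a difference of -1.15 ± 0.24 (SE). Pdgfra, its relative, was separated at -0.68 ± 0.15 (SE). Rspo3, a Wnt agonist made by stroma, was separated at -0.80 ± 0.32 (SE). Vim, the intermediate filament of mesenchymal and immune cells, read 12.21, 11.20 and 11.32 in LGD and 11.69, 11.43 and 11.68 in HGD, and its difference was 0.02 ± 0.32 (SE).

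Among 18 matrix proteases and inhibitors, 5 were separated lower and the median was -0.57, or -0.21 without LGD replicate 1. Mmp3, the stromelysin of activated fibroblasts, read 9.87, 9.29 and 8.51 in LGD and 7.71, 7.11 and 6.40 in HGD. All 6 lesions lay above normal mucosa (5.87 to 6.26), LGD further than HGD, and the difference was -2.15 ± 0.83 (SE; adjusted p 0.621). Mmp2, a gelatinase of fibroblasts, read 11.44, 10.63 and 9.55 in LGD and 9.49, 9.26 and 9.31 in HGD, a difference of -1.19 ± 0.34 (SE) that rests on LGD replicates 1 and 2. Mmp7, the matrilysin of epithelium, went the other way at 1.05 ± 1.19 (SE), with overlap.

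**Figure D3:**
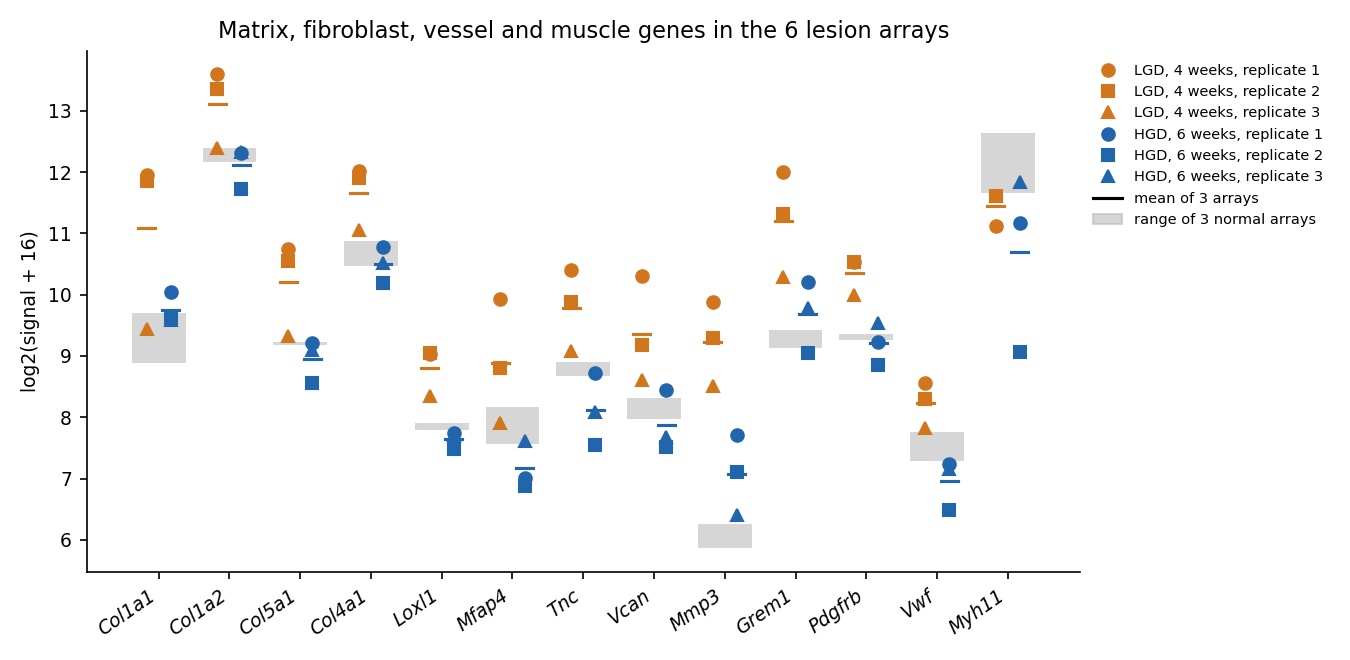
Level of 13 matrix, fibroblast, vessel and muscle genes, as log2(signal + 16), on the 3 LGD and 3 HGD arrays, with bars for group means and grey bands for the range of 3 normal arrays. LGD replicates 1 and 2 lie highest for most genes, LGD replicate 3 lies between them and HGD or, for Col1a1 (9.45), beside HGD, and HGD replicate 2 is low for Myh11 (9.07).

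Genes of blood vessels were also lower. Of 21 endothelial genes 12 were separated lower and 1 higher, with a median of -0.44. Vwf, the clotting factor carrier stored in endothelium, read 8.55, 8.30 and 7.82 in LGD and 7.24, 6.48 and 7.16 in HGD. The gap was 0.58 and the difference -1.27 ± 0.24 (SE; unadjusted p 1.27e-04, adjusted 0.35). Plvap, of fenestrated capillaries, differed by -0.86 ± 0.23 (SE) and Eng, a TGF-beta co-receptor, by -0.48 ± 0.14 (SE), both separated. Pecam1, a junction protein also carried by leukocytes, overlapped (-0.31 ± 0.21, SE). Sox17, a transcription factor of arteries and endoderm, read 7.20, 6.93 and 6.74 in LGD and 8.28, 8.35 and 7.67 in HGD, a difference of 1.14 ± 0.34 (SE). Of 6 pericyte genes 3 were separated lower, with a median of -0.75 (-0.40 without HGD replicate 2), among them Kcnj8, a potassium channel, at -1.05 ± 0.31 (SE).

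All 22 smooth muscle genes were lower in mean in HGD, by -0.77 to -0.23 with a median of -0.53 (-0.87 without HGD replicate 3), yet 0 were separated. Myh11, the smooth muscle myosin, read 11.12, 11.61 and 11.61 in LGD and 11.18, 9.07 and 11.84 in HGD. Des, the filament desmin, read 10.36, 10.82 and 10.55 in LGD and 10.12, 8.63 and 10.67 in HGD. In both, HGD replicate 2 was by far the lowest array. The other HGD arrays lay within or above the LGD range for Myh11, while for Des HGD replicate 1 lay below each LGD array and HGD replicate 3 within the range. Without HGD replicate 2 the median of the list was -0.06, and Myh11 differed by 0.06. The collagens did not depend on that array to the same degree: their median was -0.78 without it. Of 13 neuron and glia genes 1 was separated lower, where 6.62% of all genes were. It was Sox10, a factor of glia, at -0.37 ± 0.12 (SE).

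Levels in the earlier inflamed stage are given beside these as a description, with groups that share the same fit. The mean of the 15 collagen genes was 9.42 to 9.51 in normal mucosa and 10.46 to 11.27 in inflamed mucosa at day 14. It was 10.47, 10.47 and 9.49 in LGD and 9.39, 8.87 and 9.34 in HGD at 6 weeks. LGD replicates 1 and 2 thus stood at the lower edge of the inflamed range, and LGD replicate 3 and the HGD arrays at or under the normal one. At 8 weeks HGD read 9.38 to 9.74.

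LGD replicate 3 decided how many genes passed. Without it, 55 genes passed an adjusted p of 0.05, 15 higher (0.116%) and 40 lower (0.311%) in HGD. Of the 40 lower genes 21 belong to the 7 stromal lists, and 27 were separated over all 6 arrays too, while 3 of the 15 higher genes were. Col4a1, Col4a2, Col5a2, Col1a2, Mmp2, Loxl1, Pdgfrb, Vwf and Mfap4 were among those lower. Collagen genes then had a median of -1.32, with 15 of 15 separated. The proteases of mast cells had one of 1.63, with 8 of 8 separated and 0 passed. Non-overlap is reached more easily with 1 array fewer. Over all 12877 genes 2135 were then separated higher and 1926 lower, against 736 and 853 with all 6 arrays. Hpgds, which tuft cells also carry, was the mast cell gene that passed, at 0.64 with an adjusted p of 0.0434. On both LGD arrays left in that fit it lay under the signal cut-off of the filter (56.6). There the constant added before taking logs shrinks spread, so the closeness of those arrays carries little weight. Leaving out HGD replicate 3 made 1 gene pass, Lap3, an aminopeptidase (0.91 higher), and leaving out any of the other 4 arrays made 0 pass. Without LGD replicate 2, the array with the high 3 prime ratio, the median of the mast cell proteases was 1.49 and that of the collagens -0.76.

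**Figure D4:**
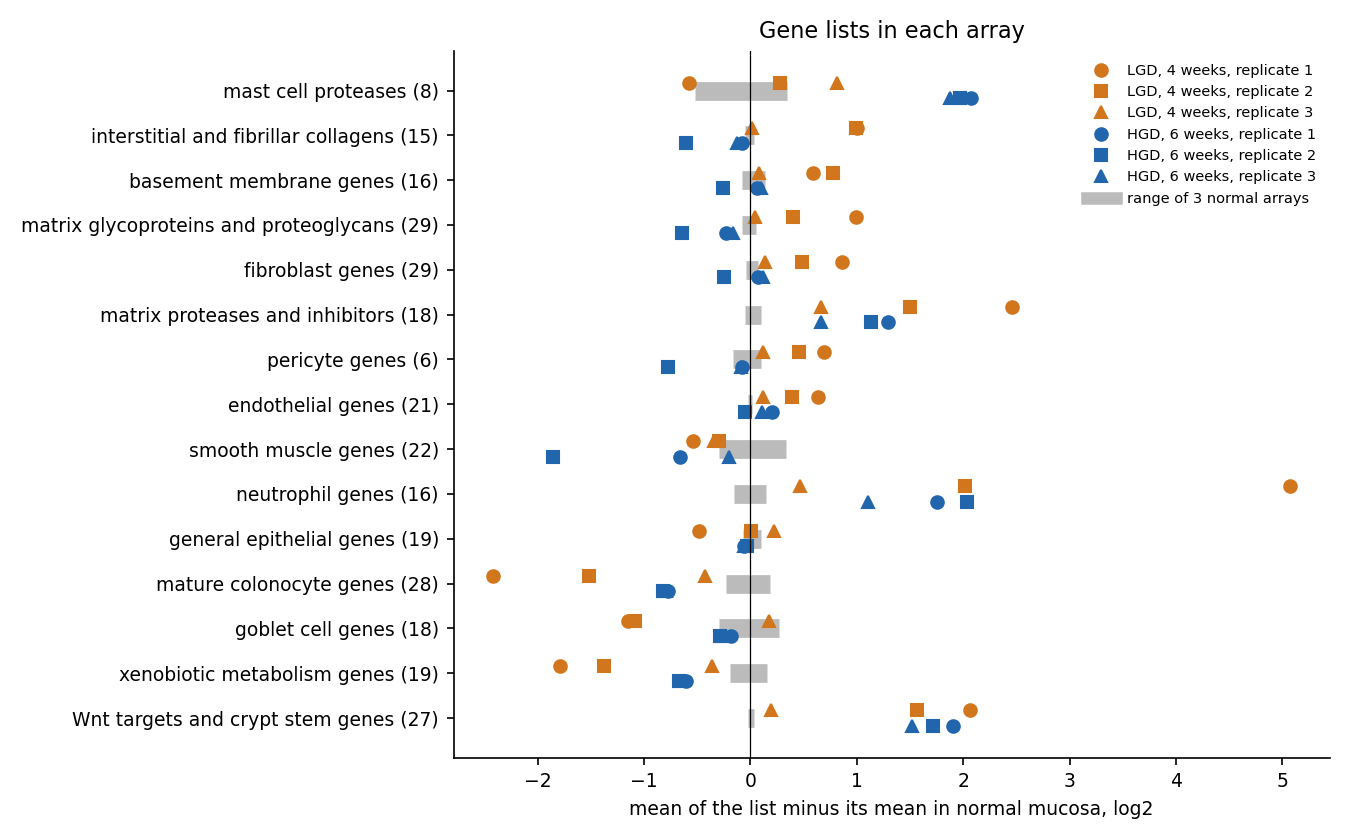
Mean of each of 15 gene lists on the 3 LGD and 3 HGD arrays minus its mean in normal mucosa (log2; number of measured genes in parentheses), with grey bars for the range of 3 normal arrays. The 3 HGD arrays lie at 1.87 to 2.07 for mast cell proteases, above LGD at -0.58 to 0.81, and LGD replicate 3 is the LGD array nearest to normal mucosa for collagens, mature colonocyte genes and Wnt targets.

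Epithelial programmes differed less from array to array in HGD than in LGD. The 28 mature colonocyte genes had a mean of 8.40, 9.29 and 10.39 in LGD and 10.04, 10.00 and 10.02 in HGD, so the HGD arrays lay inside the LGD range. Their median difference was 0.55, and it was 0.057 without LGD replicate 1 and 0.98 without LGD replicate 3. Of the 28 genes 3 were separated higher, where 5.72% of all genes were. Slc5a8, a transporter of short-chain fatty acids, read 7.14, 8.92 and 10.29 in LGD and 10.98, 10.59 and 10.91 in HGD, all under normal mucosa (11.20 to 11.96), a difference of 2.05 ± 1.03 (SE). Car4, a carbonic anhydrase of surface cells, read 6.54, 8.53 and 12.30 in LGD and 11.23, 11.15 and 11.47 in HGD and overlapped. Slc9a3, a sodium-proton exchanger, was separated at 1.35 ± 0.55 (SE). Goblet cell genes had a median of 0.27 (0.070 without LGD replicate 1, 0.56 without LGD replicate 3) and 0 of 18 were separated, and Muc2, the main mucin, overlapped at 0.20 ± 0.90 (SE).

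Genes of xenobiotic and fatty acid metabolism had medians of 0.57 (2 of 19 separated higher) and 0.30 (5 of 17 higher, 1 lower). Over all genes 5.72% were separated higher and 6.62% lower. The xenobiotic median was 0.24 without LGD replicate 1 and 1.01 without LGD replicate 3. Akr1c14, a hydroxysteroid dehydrogenase, read 5.59, 6.93 and 8.37 in LGD and 9.01, 9.34 and 9.13 in HGD, near normal mucosa (9.08 to 10.10), with a difference of 2.20 ± 0.70 (SE). Ppara, the fatty acid sensing receptor, was separated: 5.58, 5.61 and 5.66 in LGD against 5.93, 5.92 and 6.02 in HGD. Every one of these values lay under the signal cut-off of the filter (56.6), so Ppara was kept through arrays of other groups. At such levels the constant added before taking logs shrinks spread, so the closeness of the arrays carries little weight. Pck1, of gluconeogenesis, read 5.34, 5.97 and 7.52 in LGD and 8.33, 7.75 and 8.29 in HGD, and passed without LGD replicate 3 (2.47, adjusted p 0.0445). Sycn, a secretory granule protein abundant in normal mucosa here (13.18 to 13.74), read 7.49, 10.31 and 12.23 in LGD and 13.25, 13.08 and 12.62 in HGD. Its order in LGD, replicate 1 lowest and 3 highest, was that of the colonocyte genes.

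Wnt target and crypt stem genes had a median of 0.27 with 2 of 27 separated, against 0.62 without LGD replicate 1, 0.17 without HGD replicate 1 and -0.11 without LGD replicate 3. Axin2, a feedback inhibitor of the pathway, read 9.99, 10.00 and 8.10 in LGD and 10.12, 9.83 and 9.73 in HGD, and Lgr5, the stem cell receptor, 9.61, 8.48 and 6.54 against 8.36, 8.19 and 7.71. Both overlapped, and LGD replicate 3 was near normal mucosa in both. Apcdd1, a Wnt inhibitor and target, read 9.15, 9.20 and 6.71 in LGD and 11.18, 10.58 and 9.92 in HGD, so that each HGD array exceeded even the high LGD arrays. The difference was 2.21 ± 1.10 (SE) by a probe set that can bind related transcripts, and 4 others gave 0.63 to 2.27. Wif1, another secreted Wnt inhibitor, read 10.36, 10.63 and 6.82 in LGD and 11.20, 11.03 and 11.02 in HGD. Without LGD replicate 3 Apcdd1 differed by 1.38 and Wif1 by 0.59. The 28 cell cycle genes had a median of -0.13, which was -0.18 without HGD replicate 1 and -0.016 without HGD replicate 3, and 2 were separated lower. Over all genes 5.72% were separated higher and 6.62% lower. The 2 of 27 Wnt genes and the 2 of 28 cell cycle genes lay near those shares. Mki67 read 10.32, 10.34 and 10.42 in LGD and 10.24, 9.95 and 10.02 in HGD.

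Other genes separated upwards by the most included Aspa, which splits N-acetylaspartate, with 8.24, 8.37 and 6.99 in LGD and 10.26, 10.05 and 9.61 in HGD, a difference of 2.11 ± 0.52 (SE; adjusted p 0.408). The metallothionein genes Mt3 and Mt4, of metal-binding proteins, were separated at 1.91 ± 0.88 (SE) and 2.07 ± 1.38 (SE), and all 6 lesions lay above normal mucosa in both. Of the 4 measured metallothionein genes the other 2 were lower in mean, the lowest at -0.30, and not separated. The median of the 4 was 0.82, or 0.40 without LGD replicate 3 and 1.13 without LGD replicate 1. Pla2g2a, a secreted antimicrobial phospholipase, read 11.50, 13.93 and 8.60 in LGD and 14.07, 14.01 and 14.02 in HGD, separated by 0.08 from LGD replicate 2. Otop1, a proton channel, read 5.79, 6.55 and 4.94 in LGD and 8.81, 7.57 and 6.80 in HGD.

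Downwards, Chil1, a chitinase-like protein of injured epithelium and macrophages, showed the largest difference among separated genes. It read 9.79, 7.48 and 6.93 in LGD and 5.29, 5.61 and 6.22 in HGD, around normal mucosa (5.86 to 6.06) in HGD only, with a difference of -2.36 ± 0.61 (SE; adjusted p 0.408). Serpina3n, an acute phase protease inhibitor, read 10.85, 9.92 and 9.70 in LGD and 8.84, 8.48 and 8.67 in HGD, a difference of -1.50 ± 0.37 (SE). Sfrp1, a secreted Wnt antagonist of stroma, read 10.61, 9.63 and 8.81 in LGD and 8.48, 7.88 and 8.29 in HGD, a difference of -1.47 ± 0.38 (SE). Ighm, the IgM heavy chain, was lower by this probe set (-1.95 ± 0.68, SE), but its 9 other probe sets ran from -3.14 to 0.09.

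**Figure D5:**
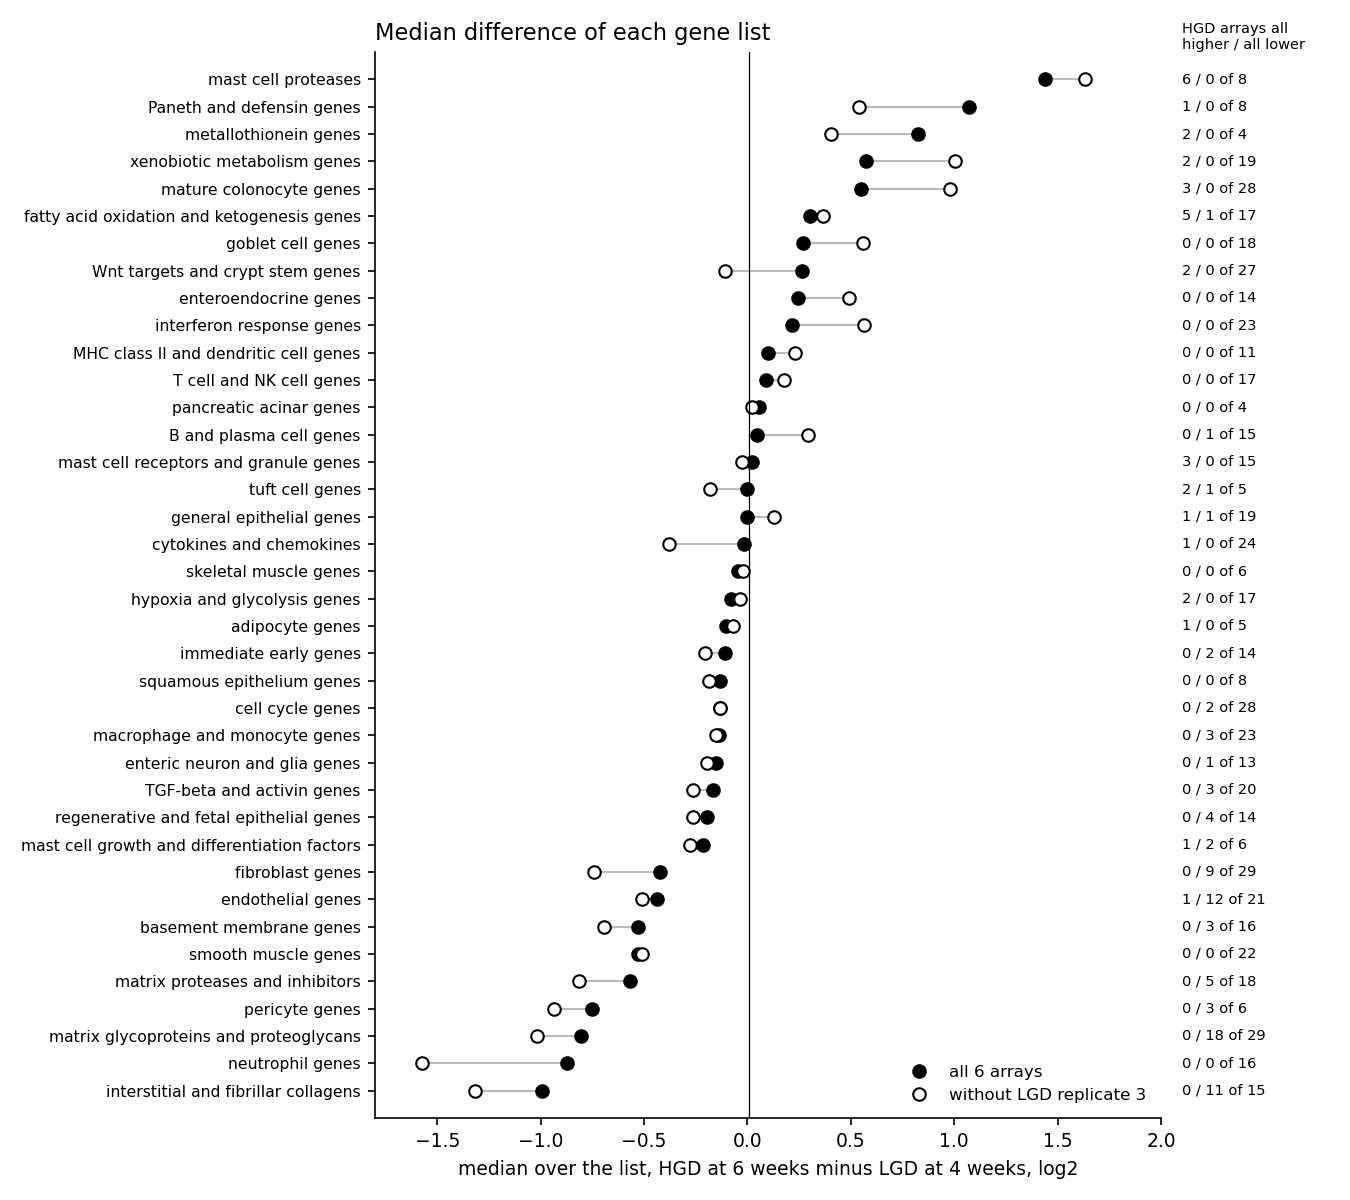
Median difference of each gene list with at least 4 measured genes (HGD minus LGD, log2) with all 6 arrays (filled) and without LGD replicate 3 (open), and on the right the number of measured genes with all HGD arrays above or below all LGD arrays. Mast cell proteases (1.44) lie at the top and interstitial and fibrillar collagens (-0.99) at the bottom, and the Wnt list changes side, from 0.27 to -0.11, without that array.

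Neutrophil genes varied widely within LGD. The mean of 16 neutrophil genes was 10.85, 7.79 and 6.24 in LGD and 7.53, 7.81 and 6.88 in HGD, against 5.62 to 5.92 in normal mucosa, and 0 were separated. Ngp, a neutrophil granule protein, read 12.96, 8.07 and 5.91 in LGD and 5.66, 6.20 and 5.94 in HGD, so its difference of -3.05 ± 1.33 (SE) came from LGD replicates 1 and 2. Without LGD replicate 1 the median of the list was 0.10, against -0.87 with it and -1.57 without LGD replicate 3. Macrophage genes had a median of -0.14 (0.092 without LGD replicate 1) with 3 of 23 separated lower, where 6.62% of all genes were. Among the 3 was Cd163, a scavenger receptor of resident macrophages, at -0.97 ± 0.38 (SE). T and NK cell, B and plasma cell, MHC class II and interferon lists had medians of 0.09, 0.04, 0.10 and 0.22, and the Ighm probe set was the 1 separated gene among them. These small medians depended on single arrays. The interferon one was -0.010 without LGD replicate 1, -0.033 without HGD replicate 3 and 0.56 without LGD replicate 3, and without LGD replicate 2 the T and NK, B and MHC class II medians were -0.10, -0.070 and -0.089.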

How the data were processed

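Biotin-labelled cRNA from total RNA was hybridised to Affymetrix mouse arrays, 1 per sample. The deposited table holds intensity, a linear signal for each of 45101 probe sets, as the authors made it; the submitters' processing notes name MAS5, with version and settings not given in the sources used here. Array medians lay between 55.7 and 57.8, so no further scaling was applied.

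Signals were taken to log2 after adding 16. Probe sets above the table median (56.6) on at least 3 of 18 arrays were kept, and each gene was read from its brightest probe set, giving 12877 genes. Of these, 1459 rest on probe sets marked as able to bind related transcripts. limma 3.58.1 (R 4.3.3) fitted 6 group means to all 18 arrays with an intensity trend (12 residual degrees of freedom). P-values are 2-sided. The script was tested on simulated data. The number of arrays limits the precision.

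The gene lists, members and comparison were chosen with earlier results of these data known. Named genes are the 12 largest separated differences in each direction, the largest separated members of each list (the largest ones where none was separated) and a fixed set of marker genes. Genes named outside that rule (Tpsg1, Hdc, Gata2, Mitf, Il33, Mgp, Pdgfra, Mmp7 and Lap3) were chosen after their values were seen. Alternatives were other pseudocounts (1 and 64), filters, probe set choices, normalization and variance models, a replicate block and each array left out.

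Titles number the arrays 1 to 3 in each group. Deviations of same-numbered arrays from their group means correlated at 0.17, -0.15 and 0.15 over genes, so the numbers were not taken as pairs.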

Additional observations from a re-analysis of the deposited data

Results flagged for a closer look

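Of the control probe sets, which enter no comparison, those for Gapdh gave a 3 prime over 5 prime log2 ratio of 1.63 on LGD replicate 2, above the normal arrays and above the range of all other arrays (-0.08 to 0.16). The beta-actin control probe sets gave 1.51 on the same array, against 0.31 to 0.69 on the others.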

How the results depend on the processing

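With all 6 arrays, no setting made a gene pass: 0 genes higher and 0 lower passed under 12 alternatives, with the lowest adjusted p at 0.102 when only the 6 arrays were fitted and 0.0929 with array weights. With the replicate block 0 genes passed, and 834 had an unadjusted p under 0.05 against 900 without it; it changed no other call. Leaving out 1 array in turn gave 0 to 15 genes higher and 0 to 40 lower. Genes separated by at least 2-fold numbered 70 to 209 higher and 25 to 137 lower over the arrays left out, against 69 and 42 with all; without LGD replicate 1 they were 112 and 25, without LGD replicate 3 209 and 137, and the lower ones 68 without HGD replicate 1 and 75 without HGD replicate 3. Arrays separate more easily when 1 is left out, so these counts are not on the same footing as those with all. Separated genes of any size numbered 736 higher and 853 lower with all 6 arrays. They numbered 1121 and 1223 without HGD replicate 2 and 1382 and 1862 without LGD replicate 1. A pseudocount of 64 gave 41 and 25 genes separated by at least 2-fold, and a median of 1.05 for the mast cell proteases, since it shrinks dim genes. Over the arrays left out, that median ran from 1.20 to 1.65, that of the collagens from -1.32 to -0.76 and that of matrix glycoproteins from -1.02 to -0.53.

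Among named genes, those close to 0 or resting on 1 array changed sign. Over the arrays left out Axin2 ran from -0.11 to 0.84, Epcam from -0.067 to 0.083, Gata2 from -0.029 to 0.10, Hdc from -0.83 to 0.96, Lgr5 from -0.96 to 0.58, Mmp7 from -0.075 to 2.05, Muc2 from -0.054 to 0.53, Myh11 from -1.32 to 0.062, Myl1 from -0.10 to 1.88 and Vim from -0.17 to 0.33. With array weights Epcam was at 0.017 and Gata2 at -0.034. With a pseudocount of 64 Hdc was at -0.0745. With the mean of all probe sets Hdc was at -0.036 and Vim at -0.016. The cause was not tested. The 3 arrays per group and the spread within LGD limit every comparison.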

Other observations

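Some lists not described above differed in values without passing the test. The 8 measured Paneth cell and defensin genes encode antimicrobial peptides and enzymes. Of them 1 was separated higher, where 5.72% of all genes were, and their median difference was 1.07. That median was 0.54 without LGD replicate 3, 0.68 without LGD replicate 2 and 1.84 without LGD replicate 1. Their mean was 12.07, 10.57 and 10.02 in LGD and 11.42, 12.36 and 12.06 in HGD, against 8.35 to 9.67 in normal mucosa, so the groups overlapped. Of 24 measured cytokine and chemokine genes 11 were higher in mean and 13 lower, and 1 was separated higher, where 5.72% of all genes were. Their median difference was -0.02, or 0.37 without LGD replicate 1 and -0.38 without LGD replicate 3. The separated one was Ccl20, an epithelial chemokine that draws lymphocytes and dendritic cells. It read 7.39, 8.17 and 8.61 in LGD and 9.62, 10.45 and 8.80 in HGD, separated by 0.19, with a difference of 1.57 ± 0.68 (SE; limma, adjusted p 0.689). The 5 measured tuft cell genes moved in both directions: Avil, a cytoskeletal protein of these cells, was separated higher at 1.09 ± 0.51 (SE), and Dclk1, their best known marker, separated lower at -0.44 ± 0.36 (SE).

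Of 14 genes of regenerating and fetal-like epithelium 4 were separated lower and 0 higher, where 6.62% and 5.72% of all genes were. In mean, 5 of the 14 were higher in HGD, by up to 1.10, and 9 lower, and the mean difference was 0.01. Their median was -0.19, and it was -0.069 without LGD replicate 1 and -0.052 without LGD replicate 2. Il1rn, the interleukin 1 receptor antagonist, read 8.96, 8.76 and 8.65 in LGD and 7.89, 8.35 and 8.29 in HGD. In the TGF-beta list 3 of 20 genes were separated lower, where 6.62% of all genes were. The median of that list was -0.17 (-0.27 without HGD replicate 1, -0.098 without HGD replicate 2, -0.26 without LGD replicate 3). Fstl1, a secreted glycoprotein of stroma, read 11.66, 11.14 and 10.41 in LGD and 10.32, 9.81 and 10.33 in HGD, and passed without LGD replicate 3 (-1.25, adjusted p 0.0401). Myl1, a skeletal muscle myosin light chain, read 9.69 on HGD replicate 3 and 5.47 to 6.45 on the other 5 arrays, while the median of the 6 measured skeletal muscle genes was -0.04.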
